A study of Homo sapiens with 8 samples.

Results

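The pentose phosphate pathway genes described here are PGLS, PGD, RPIA, RPE, TKT, TKTL1 and TALDO1, 7 of the 58735 gene IDs in the count files of a busulfan resistance study. All but TKTL1 were listed for their place in the pathway, and the list does not hold every enzyme of it. TKTL1 was selected on measured values, namely its rise over the vehicle courses in these same libraries, so its levels and differences are a description and carry no test. All 7 genes passed the filter on low counts that left 18612 genes for the tests. All 7 also averaged 5 CPM or more (read counts scaled to a common library size) over the libraries, as did 10710 genes in total. In GENCODE release 29 (GRCh38) the genes lie apart from each other, PGLS on chromosome 19 from 17511629 to 17521288 (plus strand), PGD on chromosome 1 from 10398592 to 10420144 (plus strand), RPIA on chromosome 2 from 88691644 to 88750935 (plus strand). The annotation places RPE on chromosome 2 from 210002565 to 210022259 (plus strand), TKT on chromosome 3 from 53224707 to 53256052 (minus strand), TKTL1 on chromosome X from 154295671 to 154330350 (plus strand) and TALDO1 on chromosome 11 from 747329 to 765024 (plus strand).

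The cells were MOLM-13, an established line from a human acute myeloid leukemia. The libraries used are the untreated parental cells (MOLM13-P, replicate 2) and cells after 1, 3 and 5 courses of the vehicle, dimethyl sulfoxide (DMSO), at 1% without busulfan, with 1 library for each group. The busulfan arm, in which cells met 25 to 200 µM of the drug for 6 h per course, and parental replicate 1 were not analysed here. The labels limit parental cultures to 20 passages and busulfan cultures to 60 and state none for the DMSO cultures, so passages and courses cannot be told apart. With 1 library per group, no difference between 2 libraries has a replicate check, and the intervals given for such differences cover counting error only.

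The pentose phosphate pathway branches off glycolysis at glucose 6-phosphate. Its oxidative part yields NADPH, the reductant for lipid synthesis and for glutathione, and ends in ribulose 5-phosphate. Its reversible part interconverts sugar phosphates, so that cells can make ribose for nucleotides or return carbon to glycolysis. Transketolase, which uses thiamine diphosphate as its cofactor, and transaldolase carry out the carbon transfers of the reversible part. TKTL1 is a transketolase-like paralog on chromosome X that is best known from testis and from tumours, and its own transketolase activity is disputed.

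The counts of TKT and TKTL1 are set side by side below, so the likeness of their transcripts matters. In GENCODE release 29, transcript TKT-208 has 1869 coding bases and TKTL1-202 has 1788. Over 584 codons aligned through their translation, 65.2% of the bases were identical. TKT and TKTL1 transcripts shared no stretch of 50 bases, so a read of that length has a perfect match to only 1 of these 2 genes. The 118 TKTL1 windows of 50 bases found in another gene (3.12% of 3777) lie in TEX28, which overlaps its start and had 0 counts in each library. RPE was the member with the most such overlap, with 29.9% of its windows also in transcripts of other genes. Of these windows, 788 were in KANSL1L and 397 in RPEL1, so its counts may be less certain. The search covered both strands, while reads were counted by strand, so how much of this overlap affects the counts is unknown. The share was 7.16% for PGLS, 4.16% for PGD (all in its pseudogene PGDP1), 0.89% for TALDO1 and 0% for RPIA and TKT.

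The 300 bases around the start sites (250 before and 50 after, from RefSeq on GRCh38.p14) are shown for this pair, with CpG dinucleotides in capitals, as TKTL1 was the member lowest in the parental cells and TKT is its abundant paralog. The TKTL1 window lies on the plus strand at chrX:154295545-154295844 and holds 18 CpG, and the TKT window lies on the minus strand at chr3:53255973-53256272 and holds 31.
TKTL1: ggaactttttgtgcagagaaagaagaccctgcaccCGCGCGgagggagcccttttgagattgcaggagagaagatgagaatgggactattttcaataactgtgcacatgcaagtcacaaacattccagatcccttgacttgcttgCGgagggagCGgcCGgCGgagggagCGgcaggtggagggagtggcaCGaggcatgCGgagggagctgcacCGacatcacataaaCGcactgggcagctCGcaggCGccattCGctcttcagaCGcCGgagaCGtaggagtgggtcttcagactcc
TKT: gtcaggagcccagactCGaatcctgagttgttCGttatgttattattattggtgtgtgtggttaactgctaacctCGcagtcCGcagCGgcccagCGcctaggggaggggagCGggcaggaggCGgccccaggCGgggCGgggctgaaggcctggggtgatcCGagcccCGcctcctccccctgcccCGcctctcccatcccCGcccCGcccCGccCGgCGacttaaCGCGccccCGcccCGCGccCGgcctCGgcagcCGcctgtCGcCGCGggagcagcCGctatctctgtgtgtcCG
A further TKTL1 start at chrX:154304920-154305219 has 8 CpG, and gene-level counts do not separate the starts. Over 35116 windows of this table the median was 14 CpG with quartiles of 4 and 28. All 7 genes matched the table, and the windows of PGD, PGLS, RPE, RPIA and TALDO1 held 35, 27, 24, 29 and 44 CpG, so both TKTL1 windows had fewer than any other member. The antioxidant response element TGACNNNGC, searched on both strands, was present in the windows of PGD and RPE (2 of 8 member windows, against 13.35% of all windows). A match of letters is not evidence of a bound site.

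The labels' cell type was checked on marker genes. Of the 11 myeloid markers, CD33 stood between 189 and 238.5 CPM over the 4 libraries. FLT3 stood between 392 and 617 CPM and CEBPA between 492 and 737 CPM. Others varied more, given here in the order parental, course 1, 3 and 5. MPO stood at 550.8, 932.1, 739 and 335.6 CPM and ANPEP at 11.09, 43.77, 22.75 and 28.94 CPM. CSF1R stood at 49.02, 61.52, 27.51 and 21.72 CPM and ITGAM at 16.05, 14.99, 10.87 and 8.579 CPM. These 4 had the widest log2 range of the 10 myeloid markers that averaged 5 CPM or more. KIT had at most 33 counts in any library. The 5 erythroid markers summed to at most 1 count in any library, and the 6 fibroblast markers to at most 3.31 CPM. Of these, LUM had 1, 15, 46 and 52 counts, the same order as TKTL1, COL1A1 had 186, 108, 10 and 5 counts, and COL3A1 and DCN were at 0. Of 6 epithelial markers, 2 (KRT8 and KRT18) passed 5 CPM, and the list summed to 40.2 CPM before treatment and to 20.3, 12.3 and 10.4 CPM after 1, 3 and 5 courses, with KRT19 at 0 throughout. The 7 lymphoid markers summed to 101, 133, 213 and 182 CPM in that order, nearly all of it NCAM1, with MS4A1 and CD2 at 0. Whether any of these lists has a part in the course of TKTL1 was not tested. Gene counts totalled 44795976 to 56825811 per library, and reads aligned to several places took 21.3% of the reads in course 5 and 13.9 to 15.4% in the others.

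TKTL1 (ENSG00000007350) had by far the widest range of the 7 genes. Parental cells held 2.50 CPM of it (148 counts), and the level was 12.65 CPM (545 counts) after 1 course of DMSO, 19.1 CPM (959 counts) after 3 and 32.4 CPM (1476 counts) after 5. Every DMSO library was above the parental one, and each later course was above the earlier one. In bulk RNA, a change in the number of cells that express a gene and a change in the RNA per cell cannot be told apart. Over the parental library this was 5.06-fold, 7.63-fold and 12.95-fold, or 2.34 (95% counting interval 2.07 to 2.61), 2.93 (2.68 to 3.19) and 3.69 (3.45 to 3.95) on the log2 scale. The later steps were smaller than the first, at 0.59 (0.44 to 0.75) from course 1 to 3 and 0.76 (0.64 to 0.88) from course 3 to 5 in log2 units. Strictly rising order was met by 9.41% of the 10710 genes, and it is the property TKTL1 was picked for. Among all 10710 genes, whatever their order, TKTL1 ranked 6 by its ratio of course 5 to parental, which describes the choice and supports nothing further.

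**Figure D1:**
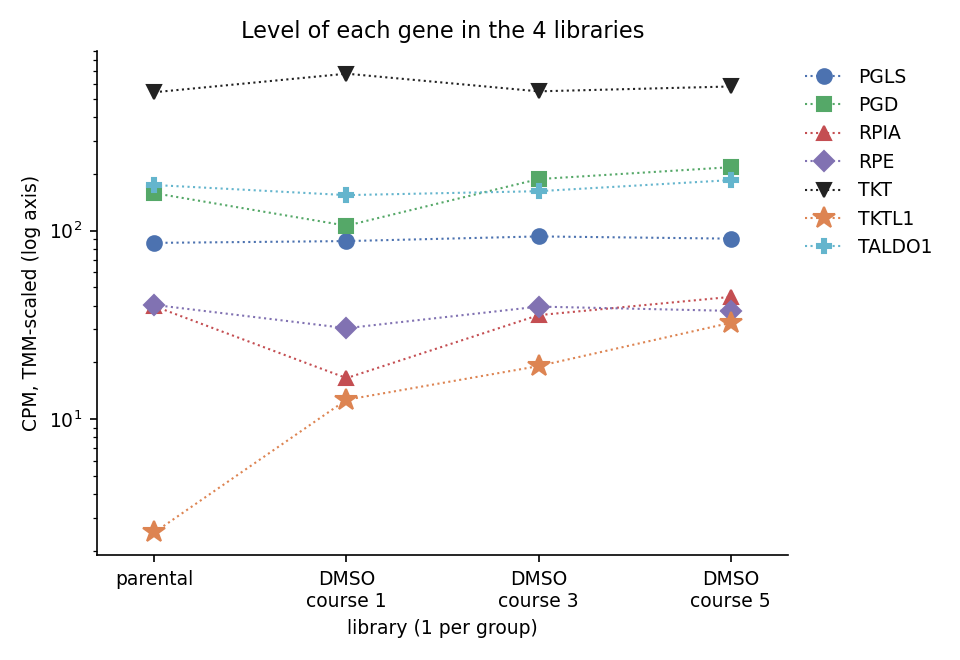
Level of the 7 genes in CPM scaled by the trimmed mean of M values (log axis) in the 4 libraries, 1 point per library, with dotted lines to guide the eye. TKTL1 (stars) goes from 2.50 to 32.4 CPM, RPIA (red triangles) and PGD (green squares) are lowest in course 1, and TKT stays between 542 and 680.1 CPM.

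TKT (ENSG00000163931), the main transketolase, showed no such course. Its level was 542 CPM before treatment and 680.1, 548 and 582 CPM after 1, 3 and 5 courses. Course 1 was the highest, 1.25-fold above the parental library (log2 0.33, 0.30 to 0.35), and course 3 lay within counting error of it (0.02, -0.01 to 0.04). The third family member, TKTL2, had 6 counts in the parental library and 3 in each DMSO library. TKTL1 therefore made up 0.459% of the reads on the 3 transketolase genes in the parental library (exact binomial 95% interval 0.388 to 0.539%), 1.83% in course 1 (1.68 to 1.98%), 3.36% in course 3 (3.16 to 3.58%) and 5.27% in course 5 (5.01 to 5.54%). These shares carry the choice of TKTL1 with them. Per base of the principal transcript, TKTL1 was 0.523% of the family in the parental library and 5.965% in course 5, so TKT remained the source of most transketolase reads in every library.

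**Figure D2:**
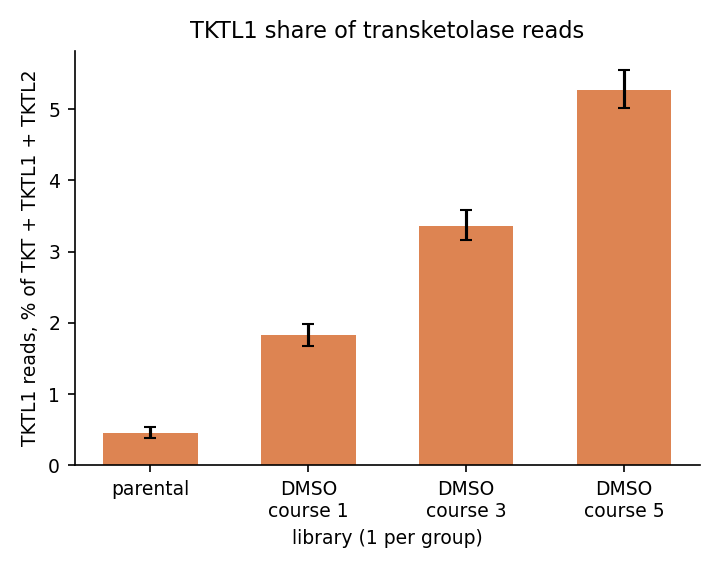
TKTL1 reads as a percentage of TKT, TKTL1 and TKTL2 reads together in each library (bars from 0, with exact binomial 95% intervals for counting error). The share goes from 0.459% in the parental library to 5.27% in course 5, in the order that TKTL1 was picked for.

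Transaldolase, encoded by TALDO1 (ENSG00000177156), is the other carbon transfer enzyme of the reversible part. Its levels were 174.5 CPM before treatment and 154, 162 and 185 CPM after 1, 3 and 5 courses. Of its log2 ratios to the parental library, the one farthest from 0 was -0.18 (-0.22 to -0.13), in course 1. The sum of all 7 genes was 1043, 1088, 1085 and 1189 CPM in the same order.

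The isomerase and the epimerase, which share ribulose 5-phosphate out between ribose 5-phosphate and xylulose 5-phosphate, were lowest in course 1. RPIA (ENSG00000153574), the ribose 5-phosphate isomerase, was at 39.7 CPM (2348 counts) before treatment, at 16.5 CPM (710 counts) after 1 course, at 35.6 CPM (1787 counts) after 3 and at 44.45 CPM (2026 counts) after 5. Course 1 stood apart from the other 3 libraries, 2.41-fold below the parental library (log2 -1.27, -1.39 to -1.15) and 2.16-fold below course 3 (log2 1.11 from course 1 to course 3, 0.98 to 1.24). In courses 3 and 5 the gene was back near the parental level, with log2 ratios of -0.16 and 0.16. RPE (ENSG00000197713), the epimerase, stood at 40.3, 30.3, 39.5 and 37.5 CPM, 1.33-fold below the parental library in course 1. The intronless RPEL1, a close copy of RPE, had 46 to 71 counts per library, at most 1.21 CPM.

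In the oxidative part, PGD (ENSG00000142657), the 6-phosphogluconate dehydrogenase that yields NADPH and ribulose 5-phosphate, was also lowest in course 1. Its levels were 158 CPM before treatment and 106, 188 and 217 CPM after 1, 3 and 5 courses. Its log2 ratios to the parental library were -0.57 (-0.63 to -0.52), 0.25 (0.21 to 0.29) and 0.46 (0.42 to 0.50), so course 1 and the later courses lay on opposite sides of the parental cells, and course 5 was 2.04-fold above course 1. PGLS (ENSG00000130313), the lactonase that acts just before PGD, had the narrowest range of the 7 genes, at 86.0, 87.9, 93.1 and 90.6 CPM. H6PD, an enzyme of the endoplasmic reticulum that carries out the first steps of a separate oxidative branch, stood at 117, 118.5, 139 and 140.1 CPM.

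**Figure D3:**
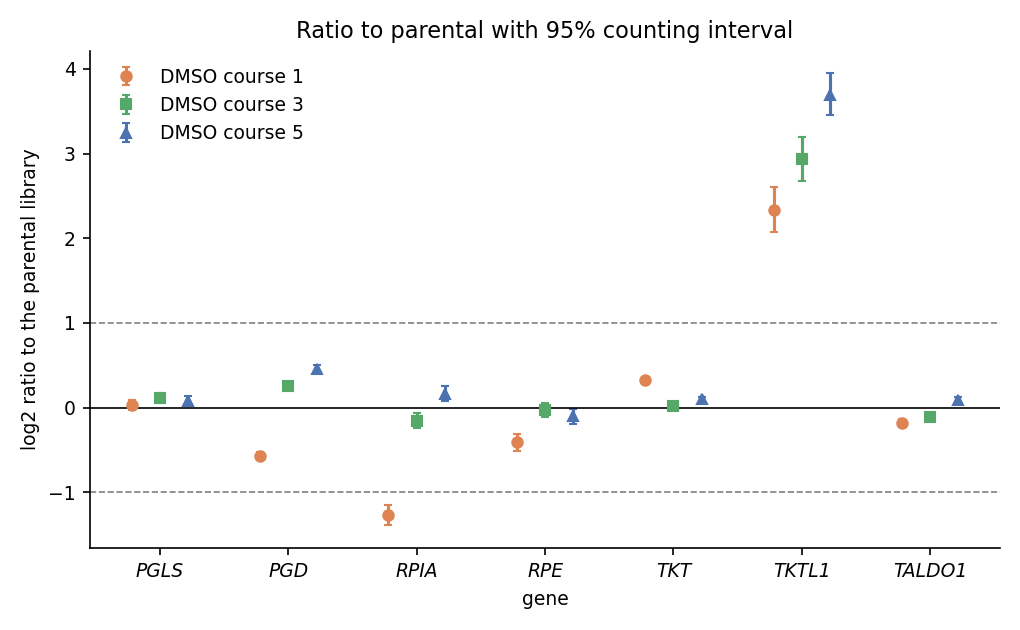
Log2 ratio of each DMSO library to the parental library for the 7 genes, with 95% counting intervals (dashed lines at 2-fold). TKTL1 lies above 2-fold in all 3 courses and RPIA below it in course 1 (-1.27), while the other points lie within 2-fold.

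Over the 10710 genes that averaged 5 CPM or more, a gene was counted as apart from the parental library when the ratio was at least 2-fold and its counting interval excluded 1. In course 1, 1 member (TKTL1) was apart and higher, against 3.7% of all genes, and 1 (RPIA) was apart and lower, against 4.19%. In course 3 and in course 5, TKTL1 was the 1 member apart and higher (background 2.23% and 2.96%) and 0 members were lower (background 2.34% and 4.92%). Nothing is read from the TKTL1 calls, since its rise chose it. RPIA was 1 of the 6 others, too few genes to read against the background. Without TKTL1, the 6 other genes had median log2 ratios of -0.29, -0.01 and 0.09 after 1, 3 and 5 courses, beside 0.02, 0.01 and 0.03 over all genes. Course 1 was the lowest library for 4 of these 6 (PGD, RPIA, RPE and TALDO1), against 35.9% of all genes.

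The comparison of the 3 DMSO libraries with the parental library and the slope over courses were fitted across all genes by quasi-likelihood in edgeR, with Benjamini-Hochberg adjusted p-values. Neither called any of the 6 tested members, and neither called any gene (0% of 18612). Unadjusted p-values under 0.05 went to 5.61% of genes in the pooled comparison and to 15.8% in the slope test, and to 0 of the 6 in both. DESeq2's Wald test called 211 genes in the pooled comparison and 880 in the slope test, and 0 of the 6 in either. The pooled log2 differences of the 6 genes ran from -0.30 (SE 0.56, RPIA) to 0.15 (SE 0.24, TKT). The smallest adjusted p of the slope test among them was 0.387, for PGD at 0.14 log2 units per course (SE 0.07). For TKTL1 the fitted values were 3.09 (pooled) and 0.58 per course, given with no test. With the DMSO courses 1, 3 and 5 alone, without the parental library and with 1 residual degree of freedom, PGD (0.25 per course, edgeR adjusted p = 0.0148) and RPIA (0.35 per course, edgeR adjusted p = 0.00927) passed, while that fit called 23.4% of its 15595 genes. Both genes had their lowest level in course 1, where that slope starts.

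Levels can be set between genes only per length, here as CPM per kilobase of the principal transcript. In the parental library TKT led with 180.1, followed by TALDO1 (129.6), PGD (83.8), PGLS (83.7), RPIA (21.5), RPE (15.7) and TKTL1 (0.947). In course 5 the order on this scale was the same, with 193 for TKT, 137.6 for TALDO1, 115 for PGD, 88.1 for PGLS, 24.1 for RPIA, 14.6 for RPE and 12.3 for TKTL1. In course 1 PGLS (85.5) was above PGD (56.3), and RPE (11.8) was above RPIA (8.92). The top of the order depends on the length used: per kilobase of all annotated exons, which for TKT include retained introns, TALDO1 (58.1) and TKT (57.0) were about level in the parental library, and PGD led in course 3 (63.2, against 57.6 for TKT and 53.8 for TALDO1) and in course 5 (73.1, against 61.2 and 61.6). The spread of each level between cultures is unknown, so close neighbours such as PGD and PGLS in the parental library cannot be ordered.

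Genes with the most similar course to TKTL1 were sought among 9611 other named protein-coding genes. These averaged 5 CPM or more and had counts in every library. Likeness was the root mean square difference from TKTL1 over the 3 log2 ratios to the parental library. The 5 closest were SLC6A12, a transporter of betaine and GABA (0.27), TOX, a high mobility group box factor (0.30), FAM163A (0.46), and the tryptase genes TPSB2 (0.49) and TPSD1 (0.55), whose family members resemble each other so closely that their counts are uncertain. SLC6A12 stood at 0.828, 4.48, 7.90 and 8.54 CPM and TOX at 1.45, 7.10, 13.3 and 13.9 CPM after 0, 1, 3 and 5 courses. Unlike TKTL1, both were nearly level between courses 3 and 5. All of these ratios share the parental library, and the ranking rests on 4 libraries.

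On chromosome X, the ratios of the expressed genes next to TKTL1 were far smaller than its own. The 5 nearest protein-coding genes before it (TEX28, OPN1MW3, OPN1MW2, OPN1MW and OPN1LW) had 0 counts in all 4 libraries, although the opsin copies are so alike that their reads would not be counted. After it, the filamin gene FLNA, 18.2 kb away, stood at 1121 CPM before treatment and at 1776, 966 and 954 CPM after 1, 3 and 5 courses. The emerin gene EMD stood at 42.6, 50.3, 42.5 and 38.6 CPM and DNASE1L1 at 19.7, 25.2, 23.7 and 24.3 CPM. RPL10, a ribosomal protein gene, stood at 910, 1083, 1175 and 1364 CPM, the same order as TKTL1 over a narrower range, and TAZ, which encodes the cardiolipin remodelling enzyme tafazzin, at 55.4, 82.1, 65.5 and 49.2 CPM. Within 1000 kb on each side, 36 other genes averaged 5 CPM or more. In course 1, 3 of them were at least 2-fold above the parental library (3.7% of all genes were) and 0 below. In course 5, 0 were above (2.96% of all genes), with a highest log2 ratio of 0.85, and 4 were below (4.92%). The genes on either side of 2-fold were named after their values were seen. SLC6A8, a creatine transporter gene, stood at 82.4, 218, 38.7 and 4.43 CPM and PNCK, a kinase gene, at 96.1, 217, 20.4 and 1.84 CPM, so both were above the parental library in course 1 and below it in courses 3 and 5. RENBP was the third gene above in course 1 (log2 1.26), and PLXNB3 (-2.96) and PLXNA3 (-2.22) were the others below in course 5.

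**Figure D4:**
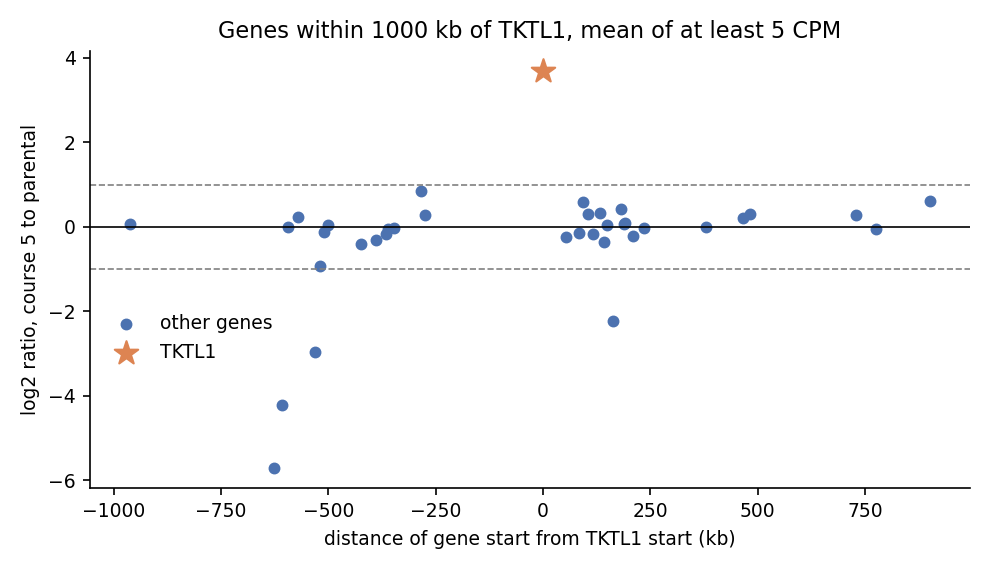
Log2 ratio of course 5 to the parental library (vertical axis) for genes that averaged 5 CPM or more, by distance of their start from that of TKTL1 in kb (dashed lines at 2-fold). TKTL1 (star, 3.69) is the only point above 2-fold, and 4 of the 36 other genes lie below it.

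Genes linked to the pathway were described from lists, by those members that averaged 5 CPM or more, with levels always in the order parental, course 1, 3 and 5. The edgeR fits called 0 members of any list, pooled or by slope. Counts of slopes at an unadjusted p under 0.05 are over the tested genes of a list, whatever their mean. Rising and falling counts together are to be read beside the 15.8% of all genes, which holds both directions. Among genes that use or salvage ribose 5-phosphate, PRPS1, a synthetase of phosphoribosyl pyrophosphate, the activated ribose of nucleotide synthesis, stood at 47.1, 27.2, 42.9 and 52.1 CPM and its paralog PRPS2 at 40.6, 30.7, 46.1 and 55.1 CPM, both lowest in course 1. PNP, the purine nucleoside phosphorylase, was also lowest there (92.5, 52.8, 68.3 and 69.0 CPM), while TYMP, the thymidine phosphorylase, was highest (45.6, 81.3, 71.0 and 62.6 CPM). The list's medians were 0.10, 0.08 and 0.15 over 9 genes, and 0 of them were 2-fold apart from the parental library in any course. At an unadjusted slope p under 0.05, 0 of its 11 tested genes had a rising slope and 1 a falling one.

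Of the pentose side routes, the xylulokinase gene XYLB stood at 5.90, 3.60, 7.41 and 10.1 CPM. CRYL1, whose product acts in the uronate route to xylulose, stood at 5.93, 7.19, 12.4 and 16.0 CPM. It was the 1 gene of 6 that was 2-fold apart from the parental library, higher in courses 3 and 5. Of all genes, 2.23% and 2.96% were apart and higher in these courses. SORD, the sorbitol dehydrogenase, stood at 54.2, 41.0, 55.7 and 67.8 CPM and AKR1A1, an aldehyde reductase, at 60.6, 77.8, 64.8 and 64.9 CPM. In this list 1 of 8 tested genes had a rising slope and 0 a falling one at an unadjusted p under 0.05.

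The enzymes that share hexose and triose phosphates with glycolysis were mostly highest in course 1. PGD, RPIA, RPE and TALDO1 were lowest in that library, while TKT was highest there too. In course 1 the list's median log2 ratio was 0.76, with 11 of 14 genes higher. In courses 3 and 5 the median was -0.36 and -0.34. Over all genes the 3 medians were 0.02, 0.01 and 0.03. By 2-fold, 4 of the 14 were apart and higher in course 1 and 0 lower, against 3.7% and 4.19% of all genes. In course 3 this was 1 higher and 2 lower (2.23% and 2.34%), and in course 5 it was 0 and 3 (2.96% and 4.92%). PFKFB4, which sets the fructose 2,6-bisphosphate signal to phosphofructokinase, stood at 101, 312, 31.8 and 7.92 CPM and the aldolase gene ALDOC at 133, 324, 41.7 and 14.6 CPM. GPI, which competes for glucose 6-phosphate at the branch point, stood at 768, 1414, 540.5 and 365 CPM, and ALDOA at 287.5, 545, 193 and 158 CPM. PFKFB4, ALDOC, GPI and ALDOA were each highest in course 1 and lowest in course 5. Among the list's 17 tested genes 0 had a rising slope and 6 a falling one at an unadjusted p under 0.05.

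The list of other NADPH sources, whose genes do not all yield NADPH, had median log2 ratios of -0.43, 0.29 and 0.39 over 12 genes. Of the 12, 9 were lowest in course 1, as were 35.9% of all genes. Among these 12 genes the mitochondrial folate enzymes had the widest ranges. ALDH1L2 stood at 88.5, 26.2, 193.5 and 267 CPM, MTHFD1L at 88.5, 21.8, 106 and 180.4 CPM, MTHFD2 at 240, 167, 449 and 619 CPM and MTHFD2L at 8.69, 4.67, 10.5 and 10.1 CPM. The same library was thus lowest for these and for PGD. It lay further below the parental library in ALDH1L2, MTHFD1L and MTHFD2L than in PGD, and slightly less far in MTHFD2. ME1 and ME3 averaged less than 5 CPM and are not among the 12. ME1 stood at 3.40, 1.09, 4.52 and 8.89 CPM, a wider log2 range than that of MTHFD2 or MTHFD2L. ME3 stood at 3.41, 1.56, 1.17 and 1.23 CPM, a wider one than that of MTHFD2L. At an unadjusted slope p under 0.05, 3 of the list's 14 tested genes had a rising slope and 0 a falling one.

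Genes for thiamine handling and the other thiamine diphosphate enzymes had medians of -0.31, -0.10 and -0.08 over 11 genes, with 0 apart by 2-fold. The thiamine transporter gene SLC19A2 stood at 18.6, 13.6, 23.1 and 24.7 CPM, its folate-carrying relative SLC19A1 at 76.5, 41.1, 59.4 and 57.5 CPM, the thiamine triphosphatase gene THTPA at 3.97, 5.45, 6.83 and 6.85 CPM, and HACL1, a peroxisomal lyase, at 24.9, 20.1, 25.5 and 33.9 CPM. Genes of the antioxidant list, not all of which use NADPH themselves, had medians of -0.32, -0.03 and 0.23 over 8 genes. The list's other genes averaged less than 5 CPM and are not in these medians. Of them, HMOX1 stood at 12.05, 2.69, 0.756 and 0.658 CPM and NQO1 at 7.15, 2.48, 4.26 and 4.43 CPM. SRXN1 stood at 0.372, 0.534, 0.677 and 0.746 CPM. The cystine carrier gene SLC7A11 stood at 36.3, 13.5, 63.0 and 66.3 CPM, the thioredoxin reductase gene TXNRD1 at 136, 95.3, 137 and 168 CPM, and the glutamate-cysteine ligase genes GCLC at 32.5, 21.2, 32.4 and 42.7 CPM and GCLM at 19.3, 11.7, 18.1 and 21.4 CPM. Course 1 was the lowest library for these 4 genes, which were named for their wide range. It was lowest for 5 of the list's 8 genes and for 35.9% of all genes. At an unadjusted slope p under 0.05, slopes were rising for 0 and falling for 1 of 12 tested thiamine genes, and rising for 1 and falling for 1 of 11 tested antioxidant genes.

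**Figure D5:**
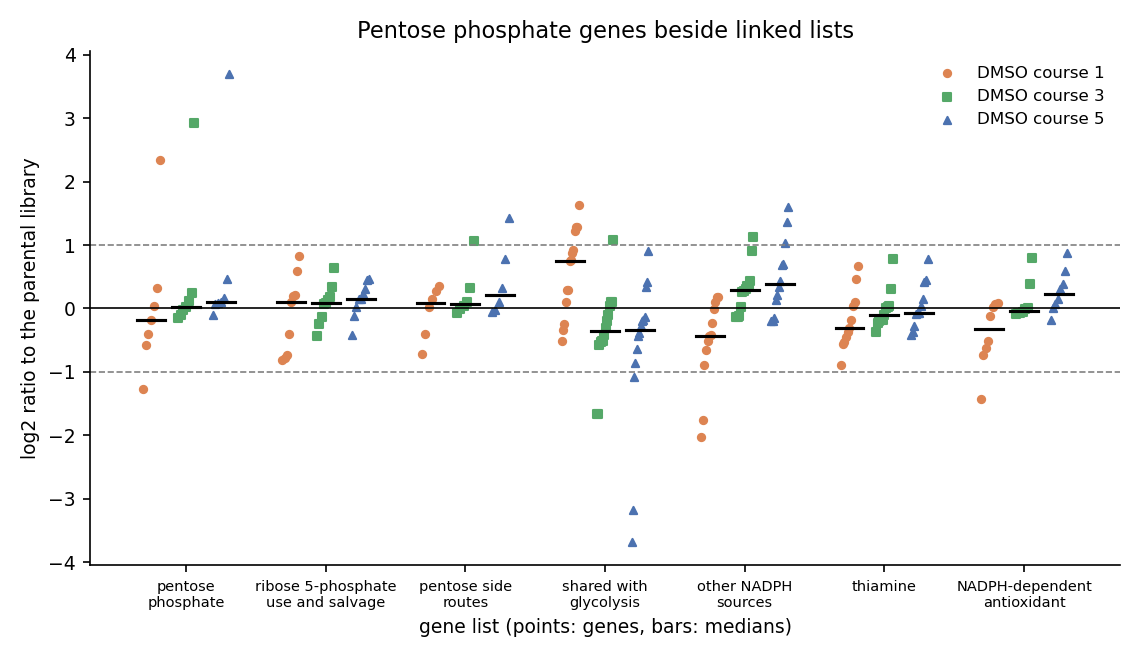
Log2 ratio to the parental library in each DMSO course for the 7 pentose phosphate genes and for 6 linked lists (points are genes that averaged 5 CPM or more, black bars medians, dashed lines 2-fold). The list shared with glycolysis has a median of 0.76 in course 1 and -0.34 in course 5, and the list of other NADPH sources has -0.43 and 0.39.

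TKTL1 is also a testis gene, so germ-cell and cancer-testis genes were set beside it. Of 18 such genes, 13 had 0 counts in all 4 libraries, and 2 averaged 5 CPM or more. TEX15 stood at 47.2, 38.0, 62.0 and 67.6 CPM and SOHLH2 at 3.67, 5.55, 5.49 and 5.88 CPM, without a 2-fold difference in any course.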

How the data were processed

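TruSeq libraries of MOLM-13 RNA were read on an Illumina instrument, per the labels' protocols. The files deposited by the authors hold raw read counts per Ensembl gene ID and 5 summary rows, and the tools FastQC 0.11.5, TopHat2 2.0.11 and HTSeq 0.6p1 and the build hg19 come from the submitters' processing notes. The annotation is not given in the sources used here. All 58735 gene IDs matched GENCODE release 29, which is on GRCh38, so it is uncertain which build lies behind the counts, and positions are those of the annotation or of RefSeq. Reads were counted as reverse-stranded per the deposited files' names, and reads aligned to several places were left out of genes.

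Of 8 samples described, the 4 with counts were used. Summary rows (24.57 to 29.81% of reads) were left out. CPM was computed with TMM-scaled library sizes. Fits used edgeR 4.0.16 in R 4.3.3 after filterByExpr (minimum count 10, minimum total 15), with 2 residual degrees of freedom and adjusted p under 0.05 as the threshold, over all 18612 genes. The DMSO libraries differ in course and nothing in the labels calls them replicate cultures, so the p-values reflect only how these libraries varied. Single libraries were compared by log2 ratios with exact binomial 95% intervals, with no test. Alternatives used DESeq2 1.42.0, limma 3.58.1, other scalings and filters, and fewer libraries. From each linked list the text names up to 4 genes that averaged 5 CPM or more, those of widest log2 range, for likeness to TKTL1 the 5 closest genes, and 5 neighbours on each side. The members, lists and rules were chosen with earlier results of these data known. The scripts were tested on simulated data.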

Additional observations from a re-analysis of the deposited data

How the results depend on the processing

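With edgeR's quasi-likelihood test 0 genes passed in the pooled comparison and 0 in the slope over courses, and these counts depended on the method. The pooled count was 211 with DESeq2's Wald test, 13 with no filter, and 25 to 1578 when 1 DMSO library was left out (1578 without course 1, 25 without course 3, 31 without course 5). The slope count was 880 with DESeq2's Wald test, 134 with no filter, and 5 to 3642 when 1 library was left out (3642 without the parental library, 2795 without course 1, 32 without course 3, 5 without course 5). The cause was not tested. Other size factors, limma-voom and a minimum mean of 5 CPM gave 0 in both. Of the 6 tested members none passed under any alternative except PGD and RPIA in the slope without the parental library. TKTL1's share of transketolase reads was 1.187% (parental), 4.619% (course 1), 8.314% (course 3) and 12.66% (course 5) with counts divided by exonic length, and 2.075%, 3.816% and 5.965% in courses 1, 3 and 5 with the principal transcript length, an alternative chosen after seeing the data. The TKTL1 slope, given with no test, was 0.58 per course and ranged from 0.33 to 0.82 when 1 library was left out. With the courses taken as equal steps (0, 1, 2, 3) it was 1.12 per step. Small log2 values of members changed sign. PGLS was -0.004 pooled with total gene counts. Leaving out single libraries gave -0.106 to 0.357 for PGD and -0.609 to 0.012 for RPIA in the pooled comparison, and -0.02 to 0.071 for RPE, -0.061 to 0.019 for TKT and -0.026 to 0.061 for TALDO1 in the slope. The counts of members apart from the parental library were the same at 1.5-fold, at a minimum of 1 CPM and with both other scalings. Total gene counts as scaling moved the median of all genes by -0.114, -0.076 and -0.043 log2 units in courses 1, 3 and 5. No paired analysis was possible because the groups compared share fewer than 2 replicate numbers. Depth limits TKTL1 in the parental library (148 counts) and TKTL2 everywhere.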
